A study of Homo sapiens with 12 samples.

Results

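TRAIL, encoded by TNFSF10, is a ligand of the tumor necrosis factor family, and the genes described here are TNFSF10 with its receptors and the first proteins those receptors engage. The 8 genes were TNFSF10, the TRAIL receptors TNFRSF10A, TNFRSF10B, TNFRSF10C and TNFRSF10D, the related death receptor FAS, and the intracellular genes CFLAR and CASP8, out of 20531 genes in the deposited tables. All 8 were found by their symbols. The list was chosen by gene name around TNFSF10, which was itself selected on its normalized counts with and without lapatinib in these same libraries, so its values in the lapatinib comparisons are given as a description with no test.

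The RNAseq libraries came from SKBR-3, an established human HER2-positive breast carcinoma line, treated with lapatinib, an ATP-site inhibitor of HER2 and EGFR. A pool of non-targeting (NT) siRNAs or a pool against FOXA1, a pioneer transcription factor of luminal cells, was given first (for 48 h by the labels, though the methods describe a shorter incubation), and lapatinib at 300 nM, or DMSO as its vehicle, then followed for 24 h. The 4 groups of 3 libraries were NT siRNA with DMSO, NT siRNA with lapatinib, FOXA1 siRNA with DMSO, and FOXA1 siRNA with lapatinib. All groups therefore share 1 cell line and a transfection, and the siRNA pools, 1 per target, do not separate effects on FOXA1 from other effects of that pool. The design asks which genes respond to HER2 inhibition and whether that response differs once FOXA1 is depleted.

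Binding of TRAIL draws TNFRSF10A (DR4) and TNFRSF10B (DR5) together, and their cytoplasmic death domains recruit the adaptor FADD, which in turn gathers caspase-8, the product of CASP8. Caspase-8 molecules activate each other there and cleave executioner caspases or the BH3 protein BID, which carries the signal to mitochondria. CFLAR encodes c-FLIP, a caspase-8 relative without protease activity whose long and short forms modulate that step, while TNFRSF10C and TNFRSF10D lack a working death domain and act as decoys.

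The libraries held 25749578 to 32271850 expected counts, with a median of 30542429. FOXA1, the target of the siRNA, had a mean normalized count of 8507 ± 235 (SD, n = 3) with NT siRNA and DMSO and 1362 ± 202 with FOXA1 siRNA and DMSO, and 12670 ± 504 against 1971 ± 378 with lapatinib. ERBB2, which encodes HER2, lay between 197300 and 458400 normalized counts, and the luminal genes EPCAM, KRT8, KRT18, KRT19 and GATA3 were at 2689 or more in every library. CDH1, the E-cadherin gene, did not exceed 18.9 and ESR1, the estrogen receptor, did not exceed 43.1. The immune genes PTPRC and CD3E stayed at or below 8.87, while the summed level of the immune list, which is almost all CD68, was 437 to 695 with NT siRNA and DMSO and 825 to 1110 with NT siRNA and lapatinib. All libraries came from the SKBR-3 line alone, and the source of the CD68 counts was not tested. The labels do not say whether the 3 libraries of a group came from separate cultures, so p-values measure the spread between these libraries.

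The TNFSF10 gene lies on the minus strand of chromosome 3, from 172505508 to 172523475 (GRCh38, GENCODE 44). The stretch just upstream of the annotated gene is shown because this is the gene with the largest response of the 8, and it is taken from the single TNFSF10 promoter window of RefSeq (GRCh38.p14). The 205 bases at chr3:172523476-172523680, minus strand, read 5′ to 3′ as follows, with capitals for a match to the core of the interferon-stimulated response element, the DNA element bound by interferon-activated factors.
TNFSF10 upstream: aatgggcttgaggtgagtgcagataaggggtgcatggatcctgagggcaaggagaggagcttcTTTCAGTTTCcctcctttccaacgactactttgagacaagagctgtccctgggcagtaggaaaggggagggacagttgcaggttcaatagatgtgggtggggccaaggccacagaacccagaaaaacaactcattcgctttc
The core was searched on both strands as a pair of GAAA runs with any 2 bases between them, and 3.57% of 35116 RefSeq promoter windows of the same length hold it. In TNFSF10 it lies on the opposite strand at positions -187 to -178 from the RefSeq start. A TATAAA match, present in 11.5% of windows, lies at -31 to -26 on the gene's strand. The RefSeq start lies inside the gene as annotated by GENCODE, so this match falls within that gene and outside the printed stretch. Among the windows of TNFSF10, FAS, CFLAR and CASP8, those searched here, the only other one with this core was 1 of the 3 windows of CASP8, where it crosses the start site at -3 to 6 (chr2:201233450-201233479, plus strand). The 30-base stretches around both matches, with the core in capitals, allow a direct comparison.
TNFSF10: gaggagcttcTTTCAGTTTCcctcctttcc
CASP8: gagtttttggTTTCTGTTTCaccttgtgtc
The forkhead letters GTAAACA or GTCAACA, found in 5.62% of windows, were not matched on either strand in the windows of TNFSF10, FAS (3 windows), CFLAR (4) or CASP8 (3). These matches are descriptions of the letters in short windows.

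TNFSF10 was low in every library without lapatinib and higher in every library with it. With NT siRNA and DMSO the 3 libraries had 14.8, 19.8 and 13.4 normalized counts, and with NT siRNA and lapatinib 147, 332 and 109. With FOXA1 siRNA and DMSO they had 27.0, 21.4 and 20.0, and with FOXA1 siRNA and lapatinib 197, 248 and 162. The lowest lapatinib library was thus well above the highest DMSO library on either siRNA, and the second library of NT siRNA with lapatinib stood above all others. The mean rose from 16.0 ± 3.38 (SD, n = 3) to 196 ± 119 with NT siRNA, a log2 fold change of 3.63 or 12.4-fold. That ranked it 19 among 13713 genes ordered from the largest rise. With FOXA1 siRNA the mean rose from 22.8 ± 3.70 to 202 ± 43.3, a log2 fold change of 3.16 or 8.92-fold, which ranked it 10 of 13745. Without the second library of NT siRNA with lapatinib, the log2 fold change with NT siRNA was 3.01. The difference between the lapatinib responses on the 2 siRNAs was -0.46 on the log2 scale, and 0.16 without that library, so its sign rested on 1 library.

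**Figure D1:**
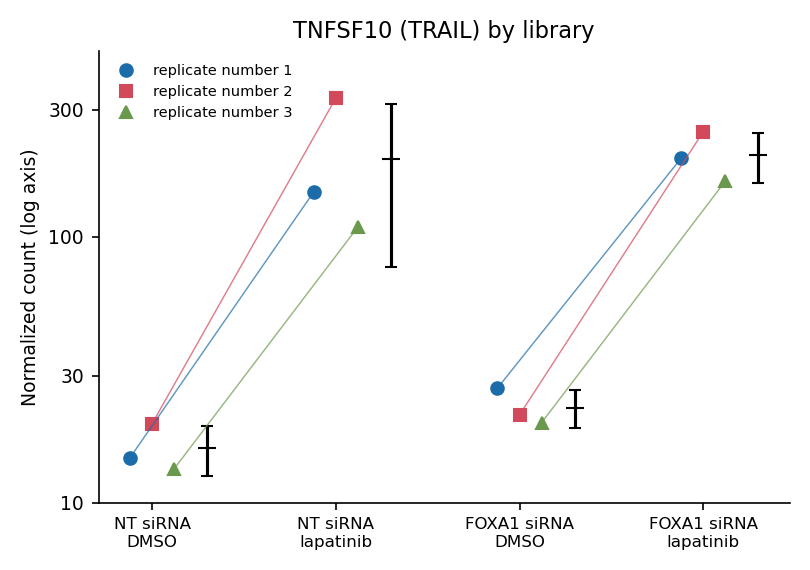
Normalized counts of TNFSF10 (log axis) in each of the 12 libraries, with lines joining libraries of the same replicate number and black bars for the group mean ± SD (n = 3). The DMSO libraries sit between 13.4 and 27.0 and the lapatinib libraries between 109 and 332.

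With all libraries in, the FOXA1 siRNA comparisons of TNFSF10 did not pass the test, and they use the same libraries as the contrast that chose the gene. In DMSO the libraries with FOXA1 siRNA (20.0 to 27.0) lay just above those with NT siRNA (13.4 to 19.8), and the log2 fold change was 0.52 ± 0.27 (SE), which did not pass in edgeR's quasi-likelihood fit (Benjamini-Hochberg adjusted p = 0.161). In lapatinib the groups overlapped, and the log2 fold change was 0.03 ± 0.38 (adjusted p = 0.949). That second value also depended on the one high library. Without the second library of NT siRNA with lapatinib, TNFSF10 was 0.66 higher with FOXA1 siRNA. Leaving out other single libraries of the comparison gave values down to -0.26. Of 9 edgeR fits in lapatinib without 1 library or 1 replicate number, 1 passed at an adjusted p under 0.05 and 5 had the opposite sign. Between libraries of the same replicate number, the difference in lapatinib was 0.42, -0.42 and 0.57 on the scale of log2(normalized count + 1). The DMSO libraries held 14 to 27 raw counts of TNFSF10.

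The genes whose levels tracked TNFSF10 most closely across the 12 libraries changed far less in size. Among 10804 genes with a mean of at least 100 normalized counts, the highest Pearson correlations of log2 levels with TNFSF10 were those of BOD1L (0.993), BAZ2B (0.989), TBCEL (0.988), PNRC1 (0.988) and CIR1 (0.987). PNRC1, a nuclear receptor coactivator, rose from a mean of 1608 to 4060 on NT siRNA, and on FOXA1 siRNA from 1803 to 3754. BAZ2B, a bromodomain protein, went from 415 to 834 and from 418 to 850. These correlations over 12 libraries mostly restate the shared split between DMSO and lapatinib libraries, and the genes are named as a description.

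On NT siRNA both death receptor genes of TRAIL fell with lapatinib while the ligand's level rose. TNFRSF10A and TNFRSF10B lie on chromosome 8, minus strand, at 23190452 to 23225102 and 23020133 to 23069031, with TNFRSF10C (plus strand, 23102921 to 23117445) and TNFRSF10D (minus strand, 23135588 to 23164027) between them. TNFRSF10A had 410, 409 and 410 normalized counts with NT siRNA and DMSO and 281, 265 and 272 with NT siRNA and lapatinib. The 2 groups were far apart, with a fall of 0.57 ± 0.08 on the log2 scale (adjusted p = 0.000488). With FOXA1 siRNA it had 317, 328 and 400 in DMSO and 318, 314 and 298 in lapatinib, so the groups overlapped, and the log2 fold change of -0.16 ± 0.11 did not pass (adjusted p = 0.243). The third DMSO library stood above its 2 group members.

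TNFRSF10B, the DR5 gene, showed a fall of similar size on a background of large differences between replicate numbers. Its normalized counts were 555, 734 and 499 with NT siRNA and DMSO and 334, 481 and 299 with NT siRNA and lapatinib. FOXA1 siRNA gave 694, 846 and 622 in DMSO, and 518, 682 and 481 after lapatinib. Replicate number 2 was the highest library in all 4 groups, as it was for 13.2% of 10805 genes. The fall with lapatinib was 0.66 ± 0.20 on NT siRNA (adjusted p = 0.0215). With a replicate block, which compares libraries of the same number, the log2 fold change of -0.67 had an SE of 0.07 (adjusted p = 0.000102). On FOXA1 siRNA the log2 fold change was -0.35 ± 0.15 without the block (adjusted p = 0.0781) and -0.36 ± 0.06 with it (adjusted p = 0.000688), and libraries of each number fell by 0.42, 0.31 and 0.37. The call on NT siRNA without the block was lost when DMSO library 2 (adjusted p = 0.0526), lapatinib library 1 (0.0732) or lapatinib library 3 (0.0759) was left out. Counting fits without a replicate number as well, it was lost in 4 of 9. On FOXA1 siRNA a call was gained without lapatinib library 2 (adjusted p = 0.0129), and in 2 of 9 such fits in all.

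FOXA1 siRNA raised TNFRSF10B in lapatinib. There the log2 fold change was 0.59 ± 0.19 (adjusted p = 0.0394), and 0.59 ± 0.07 with the block (adjusted p = 1.41e-05), while the unpaired groups overlapped. Without NT lapatinib library 1 or 3, or FOXA1 siRNA lapatinib library 1 or 2, the unblocked adjusted p was 0.118, 0.123, 0.0736 and 0.122. Counting fits without a replicate number as well, the unblocked call was lost in 6 of 9. In DMSO the value was 0.29 ± 0.17 (adjusted p = 0.200), and the block made it a call (0.29 ± 0.06, adjusted p = 0.00129), as did leaving out NT DMSO library 2 (0.47, adjusted p = 0.0202). TNFRSF10A in DMSO was at -0.22 ± 0.10 with FOXA1 siRNA (adjusted p = 0.121), a fall with the block (-0.23 ± 0.08, adjusted p = 0.0351) and without FOXA1 siRNA DMSO library 3 (-0.33, adjusted p = 0.0279). In lapatinib it was at 0.18 ± 0.09 (adjusted p = 0.125; 0.0676 with the block).

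**Figure D2:**
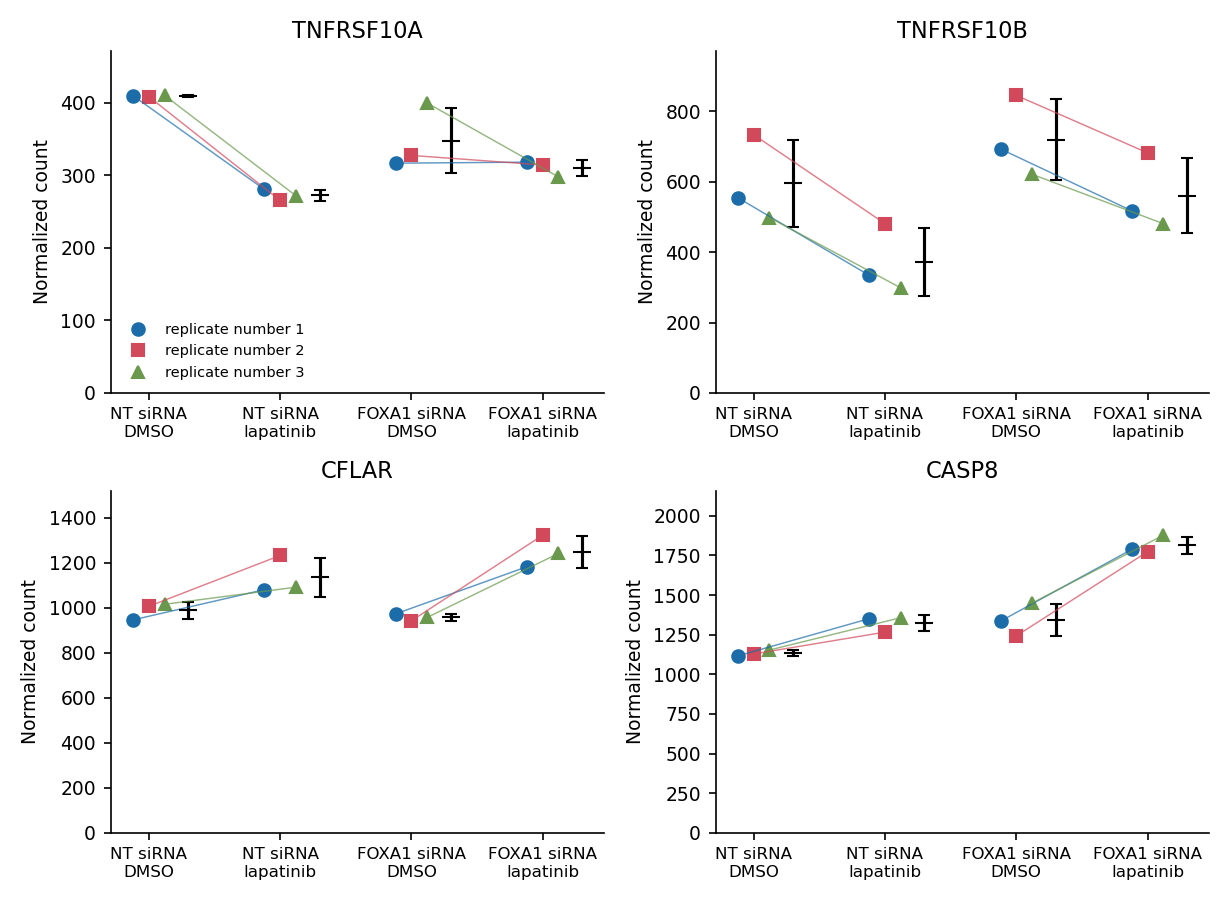
Normalized counts (linear axes from 0) of TNFRSF10A, TNFRSF10B, CFLAR and CASP8 in each library, with lines joining the DMSO and lapatinib libraries of one replicate number and black bars for the group mean ± SD (n = 3). The 3 lines of TNFRSF10B run downward and nearly parallel on both siRNAs, and the 3 lines of CASP8 run upward.

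The decoy receptors and FAS were scarcely detected. TNFRSF10C ranged from 4 to 28 raw counts, and its log2 fold changes of 0.74, 0.30, 0.21 and -0.24 in the 4 comparisons had SEs of 0.32 to 0.52 and did not pass (lowest adjusted p = 0.245). TNFRSF10D had a single count in 3 libraries and 0 in the other 9, and a count of 0 allows up to 3 counts in a library. FAS, at 88953813 to 89029605 on chromosome 10, had 10 counts in 1 library and fewer in the other 11. It passed the filter on low counts only through that library, from FOXA1 siRNA with DMSO, so the filter itself favours a higher level in that group, and no test of FAS is given. FAS overlaps ACTA2 on the opposite strand and STAMBPL1 on its own strand, both of which are in the table, and whether counting used the strand is not given in the sources used here.

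CASP8 and CFLAR, neighbours on the plus strand of chromosome 2 (201233443 to 201361836 and 201116154 to 201176687), both rose with lapatinib. CASP8 had 1116, 1128 and 1153 normalized counts with NT siRNA and DMSO and 1351, 1266 and 1357 with NT siRNA and lapatinib. The FOXA1 siRNA libraries had 1335, 1242 and 1449 in DMSO and 1788, 1773 and 1877 in lapatinib. The groups did not overlap in any of the 4 comparisons, and the levels stepped upward from the untreated group to the group with both siRNA and drug. The log2 fold change with lapatinib was 0.25 ± 0.06 on NT siRNA (adjusted p = 0.00724) and 0.44 ± 0.07 on FOXA1 siRNA (adjusted p = 0.000624). With FOXA1 siRNA it was 0.26 ± 0.07 in DMSO (adjusted p = 0.0158) and 0.44 ± 0.06 in lapatinib (adjusted p = 0.000430). The FOXA1 siRNA call in DMSO was lost without NT DMSO library 1 (adjusted p = 0.0603) or FOXA1 siRNA DMSO library 3 (0.0556), and without replicate number 1 (0.144) or 3 (0.128) in both groups. The lapatinib call on NT siRNA was lost without number 1 (0.118) or 3 (0.0989) in both groups.

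CFLAR had 947, 1007 and 1016 normalized counts with NT siRNA and DMSO, and 1081, 1233 and 1092 with NT siRNA and lapatinib. Cells with FOXA1 siRNA had 973, 943 and 958 in DMSO and 1183, 1323 and 1242 in lapatinib. Lapatinib and DMSO groups did not overlap on either siRNA. The rise was 0.39 ± 0.06 on FOXA1 siRNA (adjusted p = 0.000681). On NT siRNA it was 0.22 ± 0.07 (adjusted p = 0.0303), a call that was lost with DESeq2 (adjusted p = 0.0506) and with no filter on low counts (0.0702). It was also lost without NT DMSO library 1 (0.115), 2 (0.0565) or 3 (0.0811) or NT lapatinib library 2 (0.0782). Counting fits without a replicate number as well, the call was lost in 6 of 9. FOXA1 siRNA gave -0.04 ± 0.06 in DMSO (adjusted p = 0.654) and 0.13 ± 0.07 in lapatinib (adjusted p = 0.177), the latter a call with the block (adjusted p = 0.0243).

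The deposited mean transcript length, which RSEM weights by the estimated share of each isoform, gives a view of CFLAR that gene counts do not. CFLAR has 16 transcripts in the annotation used, and its mean length was 2308 ± 64.5 bases (SD, n = 3) with NT siRNA and DMSO and 2273 ± 61.0 with NT siRNA and lapatinib. FOXA1 siRNA gave 2423 ± 115 in DMSO and 2143 ± 19.7 in lapatinib. The last group, at 2130 to 2166 bases, lay below every library of the other 3 groups. The share of all genes with such a separation was not examined, and no test of length was made. Between 2 groups of 3 libraries the smallest exact two-sided permutation p is 0.1. The isoforms behind this length were not analysed here. For CASP8, also with 16 transcripts, group means lay between 2416 and 2440 bases with SDs of 116 to 192.

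**Figure D3:**
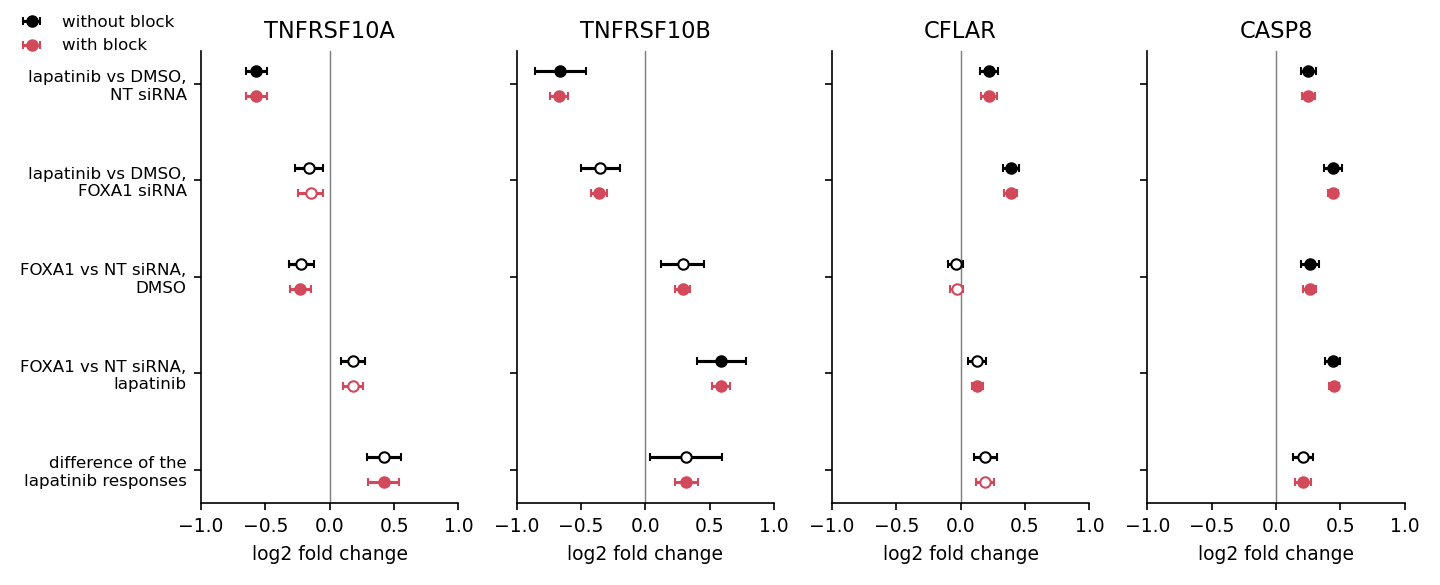
Log2 fold changes ± SE of 4 genes in the 4 comparisons and for the difference between the lapatinib responses on the 2 siRNAs, in edgeR fits without the replicate block (black) and with it (red), with filled points for an adjusted p under 0.05. The SEs of TNFRSF10B shrink from 0.20 to 0.07 with the block for lapatinib on NT siRNA, while its estimates stay within 0.01.

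The calls over the list are set beside those over all genes tested. With lapatinib on NT siRNA, 30.5% of all tested genes were called higher and 29.2% lower, and 5 of the 7 genes other than TNFSF10 entered the test, with 2 called higher (CFLAR, CASP8) and 2 lower (TNFRSF10A, TNFRSF10B). On FOXA1 siRNA, where 29.0% of genes were higher and 29.1% lower, 2 of the 5 tested apart from FAS were higher (CFLAR, CASP8) and 0 lower by edgeR's quasi-likelihood test, while TNFRSF10B was lower at an unadjusted p under 0.05 and DESeq2 called it. With FOXA1 siRNA in DMSO, where 21.9% were higher and 21.3% lower, 1 of the 6 tested apart from FAS was higher (CASP8) and 0 lower. In lapatinib, where 22.7% were higher and 22.2% lower, 2 of 6 were higher (CASP8, TNFRSF10B) and 0 lower. In both FOXA1 siRNA comparisons, edgeR gave 0 lower genes at an unadjusted p under 0.05 as well, and DESeq2 called 0. The block added TNFRSF10B as a fall with lapatinib on FOXA1 siRNA, where it called 34.1% of all genes lower. With FOXA1 siRNA in DMSO it added TNFRSF10B as a rise (30.3% of genes higher) and TNFRSF10A as a fall (30.2% lower), and in lapatinib CFLAR as a rise (30.6% higher). At a log2 change of 1 or more in size as well, 13.8%, 10.1%, 6.84% and 8.41% of genes passed in the 4 comparisons without the block, and 0 of these genes apart from TNFSF10. Groups did not overlap for TNFRSF10A, TNFRSF10B, CFLAR and CASP8 with lapatinib on NT siRNA, where 72.1% of genes with a mean of at least 100 normalized counts did not. They did not overlap for CFLAR and CASP8 with lapatinib on FOXA1 siRNA (70.7% of such genes). In both FOXA1 siRNA comparisons this held for CASP8 and TNFRSF10A, where 57.7% of such genes did not overlap in DMSO and 59.8% in lapatinib.

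The lapatinib responses of these genes were also compared directly between the 2 siRNAs. Without the block, 0 of the 5 genes tested apart from FAS differed at an adjusted p under 0.05, while 2 had an unadjusted p under 0.05 in edgeR's quasi-likelihood test, DESeq2 called 0, and 7.19% of all genes were called, 3.99% with a more positive and 3.20% with a less positive response on FOXA1 siRNA. TNFRSF10A had a difference of 0.42 ± 0.13 (adjusted p = 0.0720), its lapatinib response being less negative on FOXA1 siRNA, and passed without FOXA1 siRNA DMSO library 3 (0.53, adjusted p = 0.0235). CASP8 had 0.21 ± 0.08 (adjusted p = 0.166), CFLAR 0.19 ± 0.09 (adjusted p = 0.257) and TNFRSF10B 0.32 ± 0.28 (adjusted p = 0.579). With the block, which called 11.1% of genes in this direction, TNFRSF10A (adjusted p = 0.0287), TNFRSF10B (0.0208) and CASP8 (0.0321) passed, all with a more positive response on FOXA1 siRNA. Of the 41 further pathway genes tested, 3 had a more positive response on FOXA1 siRNA and 1 a less positive one (7 and 3 with the block). The share of all genes with a less positive response under the block is not given. Of 10 genes for transcription factors known to act on TNFSF10 or on death receptors, 1 differed in each direction, and of the interferon-stimulated genes 0 by edgeR and by DESeq2, with 1 at an unadjusted p under 0.05.

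Set against each other per length, in deposited TPM, a unit scaled by transcript length and library size, the group means of the 8 genes kept their order except for the ligand, while single libraries crossed between CASP8 and CFLAR and between TNFRSF10A and TNFRSF10B. With NT siRNA and DMSO, CASP8 (29.4 ± 1.60 TPM, SD, n = 3) and CFLAR (27.2 ± 2.24) overlapped at the top, followed by TNFRSF10A (15.3 ± 0.355) and TNFRSF10B (9.54 ± 2.25). TNFSF10 (0.607 ± 0.116) and TNFRSF10C (0.20 to 0.99) overlapped well below these, and FAS (0.0700 ± 0.0173) and TNFRSF10D were lowest. With NT siRNA and lapatinib, TNFSF10 reached 7.14 ± 4.37 TPM, a range of 3.84 to 12.1 that overlapped both TNFRSF10A (9.90 to 10.4) and TNFRSF10B (4.60 to 7.59). With FOXA1 siRNA and lapatinib it was at 7.28 ± 1.60, overlapping TNFRSF10B (8.75 ± 1.51) and below TNFRSF10A (11.5 ± 0.459). The ratio of CFLAR to CASP8 in TPM was 0.929 ± 0.103 and 0.927 ± 0.143 with NT siRNA in DMSO and in lapatinib. With FOXA1 siRNA it was 0.721 ± 0.0721 and 0.779 ± 0.0379, and the highest of those 6 libraries (0.809) lay just under the lowest with NT siRNA (0.810). TNFRSF10C and TNFRSF10D together made 2.38 ± 1.58% of the TPM of the 4 TRAIL receptors with NT siRNA and DMSO and 5.72 ± 1.76% with NT siRNA and lapatinib. FOXA1 siRNA gave 2.80 ± 0.840% in DMSO and 3.93 ± 0.728% in lapatinib, with overlapping ranges, and these shares rest on the low counts of TNFRSF10C.

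**Figure D4:**
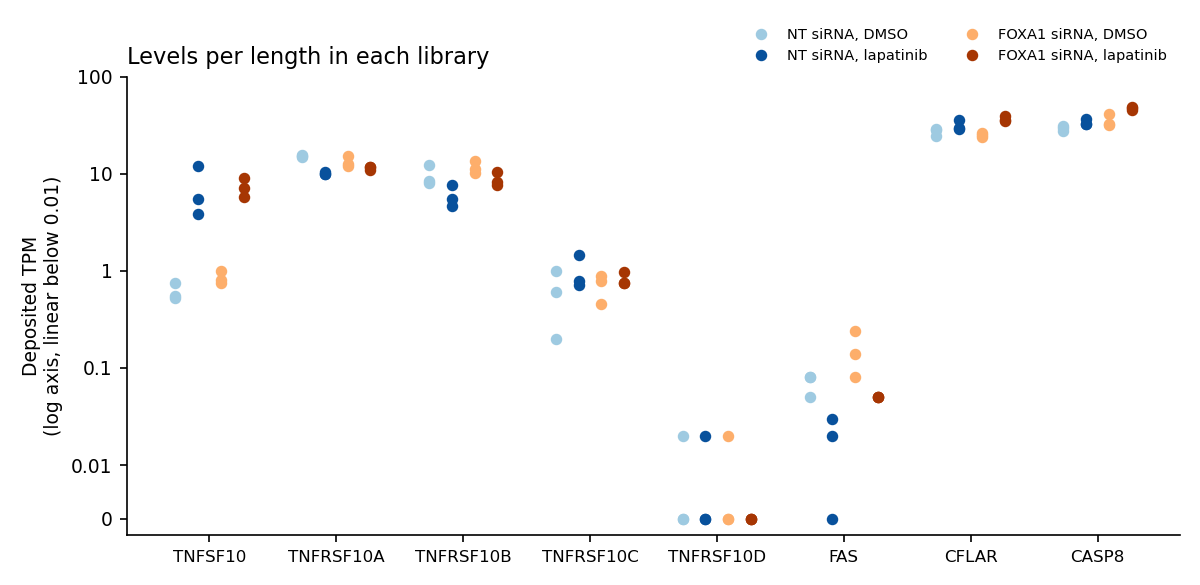
Deposited TPM of the 8 genes in each library (log axis, linear below 0.01), with 3 points for each of the 4 groups. TNFSF10 moves from below 1 TPM in all DMSO libraries to between 3.84 and 12.1 in lapatinib, into the range of TNFRSF10A and TNFRSF10B.

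Around these genes, other parts of the pathway moved in both directions with lapatinib. Of 44 further pathway genes, 41 were tested on NT siRNA, with 12 higher and 13 lower, and 40 on FOXA1 siRNA, with 15 higher and 10 lower. These counts, 12 and 13 of 41, stand beside 30.5% of all genes called higher and 29.2% lower on NT siRNA, a share near that of the list, and beside 29.0% and 29.1% on FOXA1 siRNA. The medians were -0.12 and 0.06. Among other ligands, FASLG had 0 counts in every library and TNF, with 12 to 57 raw counts, was at -0.68 ± 0.37 on NT siRNA (adjusted p = 0.143; 0.0412 with the block). Among other receptors, TNFRSF12A, the TWEAK receptor, fell by 1.43 ± 0.14 on NT siRNA (adjusted p = 6.3e-05) and by 1.02 ± 0.10 on FOXA1 siRNA (adjusted p = 6.54e-05). TNFRSF1A, the main TNF receptor, rose by 0.58 and 0.27.

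Genes of the signalling complex moved both ways, with 4 of 12 higher and 5 lower on NT siRNA (30.5% and 29.2% of all genes). RIPK3, a kinase of necroptosis, rose from a mean of 59.7 to 120 normalized counts on NT siRNA (log2 fold change 1.03 ± 0.16, adjusted p = 0.000778), whereas its substrate MLKL fell by 0.78 ± 0.12 (adjusted p = 0.000837). CYLD, a deubiquitinase of the complex, rose by 0.73 on NT siRNA and 0.68 on FOXA1 siRNA. The adaptor FADD fell by 0.25 ± 0.06 on NT siRNA (adjusted p = 0.00933) and by 0.21 ± 0.07 on FOXA1 siRNA (adjusted p = 0.0414).

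Of 9 genes listed as inhibitors, 4 were higher and 4 lower with lapatinib on NT siRNA, where 30.5% and 29.2% of all genes were. The higher ones were XIAP, BIRC2, DEDD and DEDD2, and whether DEDD and DEDD2 act as inhibitors was not examined. BIRC5, which encodes survivin and is highest in dividing cells, fell by 1.63 ± 0.22 (adjusted p = 0.000350), and on FOXA1 siRNA by 0.84 ± 0.20 (adjusted p = 0.00656). XIAP, a direct caspase inhibitor, rose by 0.55 ± 0.05 and 0.37 ± 0.04 (adjusted p = 5.34e-05 and 0.000183), and BIRC2, which encodes cIAP1, by 0.57 and 0.38. Among the caspases and the mitochondrial link, CASP9, the initiator caspase of the mitochondrial route, rose from 164 to 321 normalized counts on NT siRNA (0.99 ± 0.10, adjusted p = 7.93e-05) and APAF1, its activating scaffold, by 0.47 ± 0.11 (adjusted p = 0.00530). BID, the link from caspase-8 to mitochondria, fell from 955 to 461 (-1.03 ± 0.08, adjusted p = 1.75e-05). On FOXA1 siRNA these were at 0.89, 0.77 and -0.67, and all passed. GALNT3, a glycosyltransferase that starts O-linked glycans, rose by 0.58 and 0.54. GALNT14, an enzyme of the same family linked to glycosylation of death receptors, fell by 2.60 and 1.34, at 2.38 to 23.8 normalized counts. It was named after its value was seen. On both siRNAs GALNT14 passed the filter on low counts only through DMSO libraries, so the filter itself favours a fall. Its values are therefore a description with no test given, and the counts of lower pathway genes with lapatinib given above include it.

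FOXA1 siRNA called 8 of 41 pathway genes higher and 12 lower in DMSO, and 8 of 39 higher and 10 lower in lapatinib. Of all genes, 21.9% were higher and 21.3% lower in DMSO, and 22.7% and 22.2% in lapatinib. The 8 higher genes in DMSO include CASP10, which reached 10 counts there only with FOXA1 siRNA, so the filter favours its rise. CASP6, an effector caspase, fell by 0.71 in DMSO and 0.67 in lapatinib. CYLD rose by 1.16 and 1.11 and GALNT3 by 1.04 and 0.99, in DMSO and in lapatinib. FUT3, a fucosyltransferase, fell by 1.12 ± 0.22 in lapatinib (adjusted p = 0.00436) and was at -0.16 ± 0.21 in DMSO (adjusted p = 0.587). The comparisons in DMSO and in lapatinib share no library with each other, but each shares its groups with the lapatinib comparisons.

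The 10 genes for transcription factors of TNFSF10 or of death receptors were mostly higher with lapatinib. By edgeR, 6 were called higher and 0 lower on NT siRNA, and 8 and 0 on FOXA1 siRNA. Of all genes, 30.5% were higher and 29.2% lower on NT siRNA, and 29.0% and 29.1% on FOXA1 siRNA. At an unadjusted p under 0.05, 0 of the 10 were lower on either siRNA without the block, and DESeq2 called 4 and 8 higher and 0 lower. With the block, 0 were called lower on NT siRNA and 1 on FOXA1 siRNA, where it called 34.1% of all genes lower. The medians were 0.38 and 0.42. FOXO3, a forkhead factor that is held in the cytoplasm by AKT, rose by 1.88 ± 0.06 on NT siRNA (adjusted p = 1.27e-06) and by 1.49 ± 0.08 on FOXA1 siRNA (adjusted p = 4.52e-06). FOXO4 rose by 1.60 and 1.35. IRF1, an interferon regulatory factor, had 368, 513 and 303 normalized counts with NT siRNA and DMSO and 548, 993 and 488 with NT siRNA and lapatinib, and library 2 was its highest in all 4 groups (log2 fold change 0.80 ± 0.29, adjusted p = 0.0401). DDIT3, the CHOP gene, rose by 0.96 ± 0.20 (adjusted p = 0.00316). With FOXA1 siRNA 1 of the 10 was higher and 2 lower in DMSO, and 1 higher and 4 lower in lapatinib, FOXO4 by 0.86. Of all genes, 21.9% were higher and 21.3% lower with FOXA1 siRNA in DMSO, and 22.7% and 22.2% in lapatinib. With the block, 4 of the 10 were higher and 4 lower in DMSO (30.3% and 30.2% of all genes). In lapatinib the block called 4 higher (30.6% of all genes) and 5 lower. The share of all genes that the block called lower there is not given, so the 5 are a description.

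Among 10 interferon-stimulated genes, 6 of 9 tested were higher and 1 lower with lapatinib on NT siRNA, and 7 and 0 on FOXA1 siRNA, with medians of 1.34 and 1.22. Of all genes, 30.5% were higher and 29.2% lower on NT siRNA, and 29.0% and 29.1% on FOXA1 siRNA. By edgeR on FOXA1 siRNA, 0 were lower at an unadjusted p under 0.05, and DESeq2 called 0 lower. Among the genes called higher, IFIT2 and IFIT3 on NT siRNA and IFIT3 on FOXA1 siRNA reached 10 counts only in lapatinib libraries. IFIT1, not called on NT siRNA, entered that test in the same way. For these genes the filter itself favours a rise, and the counts and medians include them. OAS1 had 41.4, 105 and 39.3 normalized counts with NT siRNA and DMSO and 155, 299 and 172 with NT siRNA and lapatinib (log2 fold change 1.77 ± 0.41, adjusted p = 0.00553). IRF9 rose by 1.38 ± 0.33 (adjusted p = 0.00685) and IFI6 by 1.34 ± 0.17 (adjusted p = 0.000230). ISG15 fell by 0.78 ± 0.19 (adjusted p = 0.00830), and MX1 stayed between 7.67 and 21.8 counts in all libraries. FOXA1 siRNA called 0 of 8 in DMSO by edgeR's quasi-likelihood test, where OAS1 and IFI6 had an unadjusted p under 0.05, DESeq2 called 1 and the block called 2. It called 1 higher (IFIT2, 1.41, chosen after its value was seen) and 1 lower (IRF7, -0.26) of 9 in lapatinib, where the block called 4 and 1. Of all genes, FOXA1 siRNA called 21.9% higher and 21.3% lower in DMSO, and 22.7% and 22.2% in lapatinib. With the block, 30.3% were higher in DMSO and 30.6% in lapatinib, and the share called lower in lapatinib is not given.

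**Figure D5:**
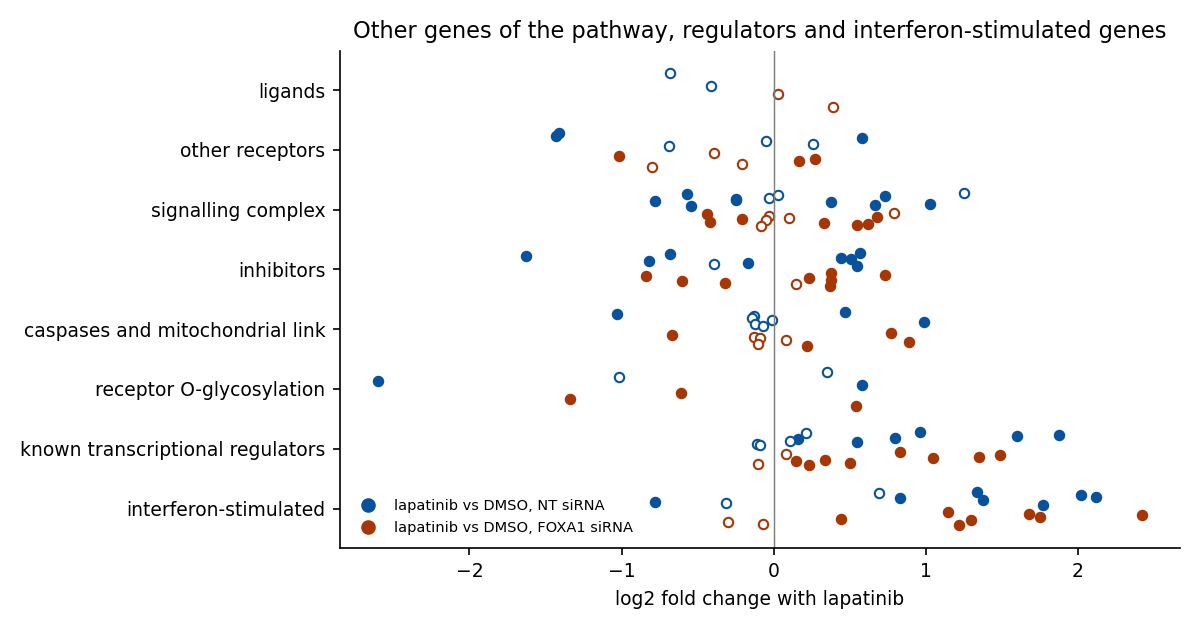
Log2 fold changes with lapatinib on NT siRNA (blue) and FOXA1 siRNA (orange) for the tested genes of the 6 pathway groups, the transcriptional regulators and the interferon-stimulated genes, with filled points for an adjusted p under 0.05. The pathway groups spread to both sides of 0, while the called regulators lie to the right.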

How the data were processed

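RNAseq was analysed in 12 SKBR-3 libraries, 4 groups of 3. The authors deposited RSEM gene tables, with expected counts, TPM, a normalized signal column and transcript lengths, and the labels name DESeq, DESeq2 1.12.3 and R 3.2.2. The deposited TPM are scaled by transcript length and library size, and the deposited normalized signal was not used. The study's methods describe alignment to hg38 with STAR and Salmon quantification, whereas the labels name RSEM, so the steps behind these tables are not settled. Of all deposited expected counts, 87.5 to 88.1% were whole in a library, as were those of the 8 genes except CFLAR in 4 libraries. The labels name 2 library kits, 1 of them stranded. Rows without a symbol (29) took at most 0.0459% of counts and were kept by their gene numbers.

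Expected counts were rounded and tested with edgeR 4.0.16 (TMM, quasi-likelihood; R 4.3.3) in the 6 libraries of each comparison, or all 12 for the difference between responses, over genes that reached 10 counts in 1 library or more. P-values were Benjamini-Hochberg adjusted over all genes tested, and calls had an adjusted p under 0.05. Fold changes are given with SE. Normalized counts are counts scaled by TMM library size over all 12 libraries to a common depth. The script was tested on simulated data.

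Libraries with the same replicate number deviated from their group means together (18 pairs, r = 0.241 to 0.624 over 12170 genes). The mean of -0.184 for 36 pairs of different numbers adds no separate support, since deviations within a group sum to 0. The numbers were taken as pairs from the data, and fits with a replicate block are given where they change a call. Other alternatives were RLE and upper-quartile scaling, DESeq2 1.42.0, other filters, all 12 libraries in 1 model, a fold minimum, a stricter threshold, and leaving out libraries.

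The 8 genes, the lists and the motifs were chosen with earlier results of these data known. Beyond the 8 and FOXA1, genes were named as the 3 with the largest called changes per list part and direction among those with a mean of at least 50 normalized counts, and other values (among them those of TNF, FASLG, FADD, MX1 and IFIT2) were chosen after they were seen. A few genes that the rule would name are not reported here, though the counts over lists include them. Intervals and floors cover counting error only. Sequences are RefSeq promoter windows; receptors on chromosome 8 and protein sequences were not analysed here.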

Additional observations from a re-analysis of the deposited data

Results flagged for a closer look

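The difference between the lapatinib responses on FOXA1 siRNA and on NT siRNA was tested over all 12 libraries with edgeR's quasi-likelihood test and Benjamini-Hochberg adjustment. Several genes of the lists were called, among them 3 of 41 pathway genes with a more positive and 1 with a less positive response without the block. Of all genes, 3.99% were more positive and 3.20% less positive without the block, and 11.1% were more positive with it. In the fit with the replicate block, the response was more positive on FOXA1 siRNA for TNFRSF10A (difference 0.42 ± 0.12, adjusted p = 0.0287), TNFRSF10B (0.32 ± 0.09, adjusted p = 0.0208) and CASP8 (0.21 ± 0.06, adjusted p = 0.0321), and these 3 did not pass without the block. The lapatinib libraries of each replicate number moved by -0.54, -0.62 and -0.59 on NT siRNA for TNFRSF10A, and by 0.01, -0.06 and -0.42 on FOXA1 siRNA, on the scale of log2(normalized count + 1).

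Without the block, TNFRSF1A rose less with lapatinib on FOXA1 siRNA (-0.30, adjusted p = 0.0287). TRAF2, an adaptor of the TNF receptors, differed by 0.47 (adjusted p = 0.0170), falling by 0.54 on NT siRNA and standing at -0.08 on FOXA1 siRNA. BIRC3, which encodes cIAP2, differed by 1.42 ± 0.32 (adjusted p = 0.0208): it fell by 0.68 on NT siRNA and rose by 0.73 on FOXA1 siRNA, at means of 30.5 to 52.8 normalized counts. HTRA2, a mitochondrial protease, differed by 0.31 (adjusted p = 0.0452) and FOXO3 by -0.37 (adjusted p = 0.0456). No group held the 4 samples needed to screen single libraries for outlying values.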

How the results depend on the processing

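No direction of the 8 genes changed under RLE or upper-quartile scaling, DESeq2, other filters, all 12 libraries in 1 model or the replicate block. With a minimum of 1 on the size of the log2 fold change, 0 of the genes other than TNFSF10 were called in any comparison, and pathway genes called higher and lower were 1 and 5 (lapatinib, NT siRNA), 0 and 2 (lapatinib, FOXA1 siRNA), 4 and 0 (FOXA1 siRNA, DMSO), 2 and 1 (FOXA1 siRNA, lapatinib) and 1 and 0 (difference between responses). At an adjusted p under 0.01, the genes other than TNFSF10 gave 1 higher and 1 lower with lapatinib on NT siRNA. The 8 genes gave 0 higher with FOXA1 siRNA in DMSO and 1 in lapatinib. Pathway genes then gave 6 lower with lapatinib on FOXA1 siRNA, 4 higher and 7 lower with FOXA1 siRNA in DMSO, 6 lower in lapatinib, and 0 for the difference. The share of all genes at this stricter threshold is not given, so these counts are a description and no result about the lists. DESeq2 called 1 gene higher with lapatinib on NT siRNA, 1 lower on FOXA1 siRNA and 5 pathway genes with a more positive response. No filter left 1 higher on NT siRNA. In the model of all 12 libraries the count of lower genes on FOXA1 siRNA rested on FAS, which the filter let in through 1 high library. That count is therefore not used as a result. The replicate block gave 1 lower on FOXA1 siRNA, 2 higher and 1 lower with FOXA1 siRNA in DMSO, 3 for the difference, and 7 and 3 pathway genes there, and besides the calls given beside the results it changed no other call of the 8 genes.

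Without 1 library, or 1 replicate number in all groups (added after seeing the data), counts ranged from 0 to 2 higher and 1 to 2 lower with lapatinib on NT siRNA. They were 2 to 2 and 0 to 1 on FOXA1 siRNA, 0 to 2 and 0 to 1 with FOXA1 siRNA in DMSO, 1 to 3 and 0 to 0 in lapatinib, and 0 to 1 and 0 to 0 for the difference. Pathway counts ranged over 10 to 13 and 8 to 14, 8 to 14 and 5 to 9, 4 to 8 and 3 to 13, 4 to 10 and 5 to 10, and 0 to 5 and 0 to 2, in the same order. TNFSF10 with FOXA1 siRNA in lapatinib (0.66 at most) turned to -0.13 and -0.26 without NT lapatinib library 1 or 3, -0.15 without FOXA1 siRNA lapatinib library 2, and -0.11 and -0.12 without number 1 or 3. The difference of its lapatinib responses (-0.76 at its lowest) turned to 0.16 without NT lapatinib library 2. TNFRSF10C turned to -0.20 without NT DMSO library 1 and -0.28 without number 1 (FOXA1 siRNA, DMSO), to 0.13 without NT lapatinib library 2 and 0.22 without number 2 (FOXA1 siRNA, lapatinib, otherwise down to -0.51), and to 0.22 without number 2 for the difference (otherwise down to -1.36). FAS turned to 0.47 without NT lapatinib library 2 and 0.35 without number 2 for the difference (otherwise down to -0.80). The cause was not tested, beyond the smaller number of libraries.

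Counts were low for TNFRSF10C, TNFRSF10D and FAS, at 28, 1 and 10 raw counts or fewer, and for TNFSF10 in DMSO. Small called changes such as that of CFLAR on NT siRNA rested on 3 libraries a group.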
